A study of Rattus norvegicus with 3 samples.

Results

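The genes that make and break down cyclic nucleotides were described in the motor cortex of 3 rats of the outbred Sprague-Dawley stock, all male and without treatment. Members were taken by name, as every row whose symbol starts with Adcy and a digit (adenylyl cyclases), with Gucy1 or Gucy2 (guanylyl cyclases), or with Pde, a number and a letter (phosphodiesterases). This gave 43 of 30957 genes in each table. They comprised 10 adenylyl cyclases, 9 guanylyl cyclases and 20 catalytic phosphodiesterases. The remaining 4 matched by name without being catalytic: Pde4dip, Pde6d, Pde6g and Pde6h. All animals (numbers 32, 39 and 68) belong to 1 group, labelled normal, with no treatment and a time of 8 weeks whose starting point the labels do not give. Each animal gave 1 mRNA library, so differences between animals, dissections and libraries cannot be told apart. Values are the authors' FPKM, in which fragment numbers are scaled by the length of the gene and the size of the library, and are comparable between genes only as far as the gene models are right.

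Adenylyl cyclases make cAMP and guanylyl cyclases make cGMP, and phosphodiesterases hydrolyse either or both. In cortical neurons cAMP is raised through Gs-coupled receptors and, for some cyclases, by calcium with calmodulin. Soluble guanylyl cyclase is the receptor of nitric oxide and works as a dimer of an alpha and a beta subunit. Phosphodiesterase families differ in substrate and in what regulates them, such as calcium with calmodulin for the Pde1 family and cGMP itself for Pde2a.

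Short loci gave an inferred depth of 15460924 to 17666573 fragments per library, at which 1 FPKM rests on 15.5 to 17.7 fragments per kilobase. All 7 cortical excitatory neuron genes found were above 1 FPKM (limma, adjusted p under 0.05 for each, as were 69.6% of all tested genes), led by Camk2a at 685 ± 79.3 and Slc17a7 at 517 ± 21.1 FPKM (SD, n = 3). The library of animal 68 stood apart. Its 7 choroid plexus genes summed to 7495 FPKM, against 11.5 in animal 32 and 632 in animal 39. The 7 oligodendrocyte genes summed to 3161, 4857 and 8504 FPKM in animals 32, 39 and 68, and the 6 astrocyte genes to 272, 435 and 875. The 10 striatal projection neuron genes summed to 129, 103 and 245 FPKM in the same order, and 9 of the 10 were highest in animal 68.

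Most members were detected. In all 3 libraries 36 of 43 were above 0, a count for which the share of all genes was not computed. A level of 1 FPKM in every animal was reached by 29 members, against 40.7% of all genes. A mean of at least 1 FPKM was reached by 30 members, against 43.2% of all genes. Among genes above 0 in at least 2 libraries, 26 of the 39 members tested were above 1 FPKM (limma one-sample test of log2(FPKM + 0.1), Benjamini-Hochberg adjusted over 17533 genes, p under 0.05), where 69.6% of all tested genes were. Below 1 FPKM were 5 members, where 17.4% of tested genes were. Both shares of members, 66.7% and 12.8%, were near those of all tested genes. Against the typical expressed gene of the same library (9.82, 10.3 and 10.8 FPKM in animals 32, 39 and 68, the median over genes averaging 1 FPKM or more), 17 members were above (32.6% of all tested genes) and 20 were below (55.8% of all tested genes). The members' median, 4.43 FPKM over all 43, compares with 0.276 FPKM over all 30957 genes.

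**Figure D1:**
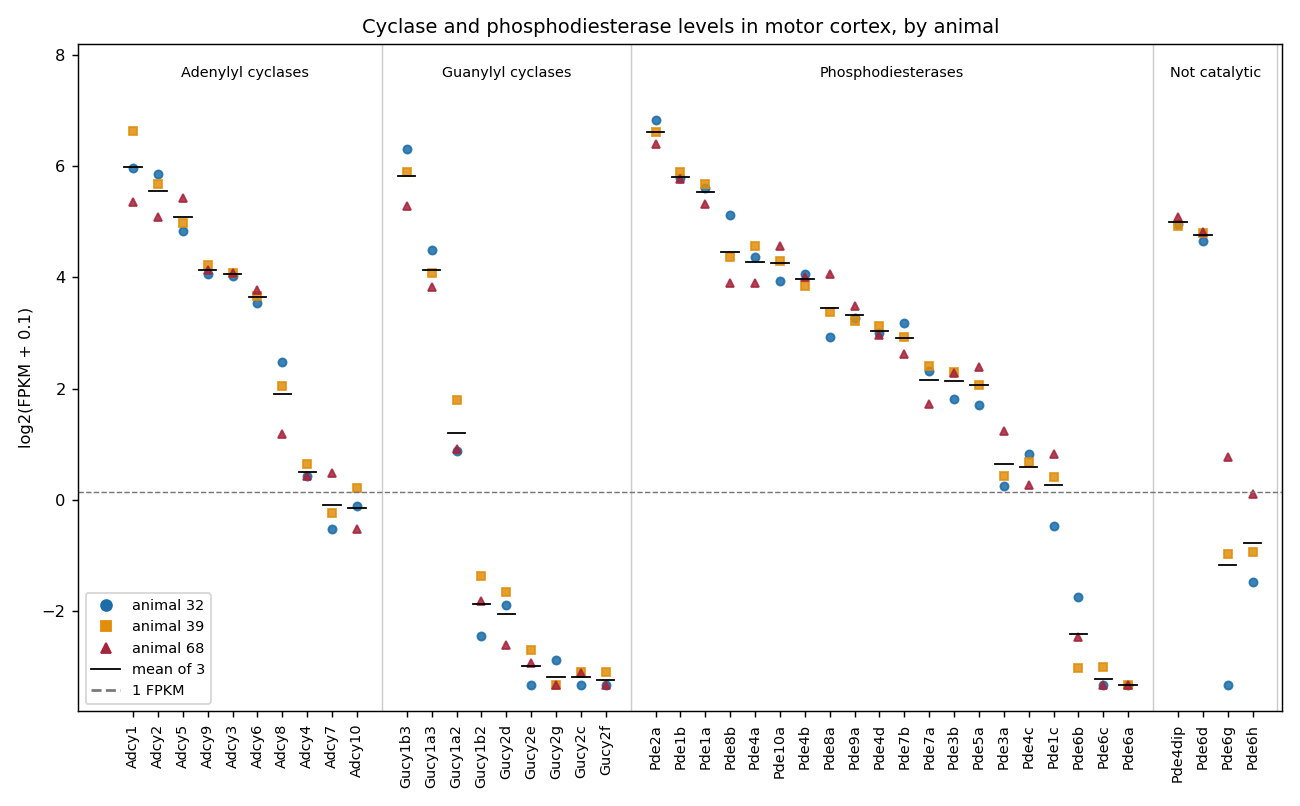
Level of each of the 43 members in each animal, as log2(FPKM + 0.1), ordered within its family by mean FPKM, with a bar at the mean of the 3 log2 values and a dashed line at 1 FPKM. Pde2a (83.9 to 113 FPKM) is the highest phosphodiesterase, Adcy1, Adcy2 and Adcy5 lead the adenylyl cyclases, and the receptor guanylyl cyclases and catalytic Pde6 genes sit far below 1 FPKM.

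Among adenylyl cyclases, Adcy1, Adcy2 and Adcy5 together held 73.2 ± 3.87% of the family's summed FPKM (SD, n = 3). Adcy1 (chromosome 14, 87312203 to 87421659, Rnor_6.0), the neuronal cyclase activated by calcium with calmodulin, measured 62.2, 99.5 and 41.0 FPKM in animals 32, 39 and 68. Adcy2 (chromosome 1, 37507276 to 37698390), which G protein beta-gamma subunits stimulate, measured 58.4, 51.2 and 34.1 FPKM. Adcy5 (chromosome 11, 68695839 to 68842320), a calcium-inhibited cyclase known as the main form of the striatum, measured 28.4, 31.7 and 43.3 FPKM. Animal 68 was thus lowest for Adcy1 and Adcy2 and highest for Adcy5, and the order of Adcy1 and Adcy5 turned between animals. Their log2 ratio was 1.13, 1.65 and -0.08 in animals 32, 39 and 68. Adcy2 exceeded Adcy5 in animals 32 and 39 but not in animal 68.

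A middle group of adenylyl cyclases varied little. Adcy9, a widely expressed cyclase, measured 16.5, 18.6 and 17.4 FPKM. Adcy3, a cyclase of olfactory neurons and of neuronal primary cilia, measured 16.2, 16.9 and 16.7 FPKM, and its SD of 0.03 on the log2 scale compares with a median SD of 0.20 over all genes averaging 1 FPKM or more. Adcy3 overlaps the opposite-strand gene Cenpo by 511 bases at its end, but Cenpo averaged 0.839 FPKM. The ranges of Adcy9 and Adcy3 overlapped, although Adcy9 was the higher in 3 of 3 animals. Adcy6, the closest relative of Adcy5, measured 11.6, 12.5 and 13.5 FPKM, a log2 difference of 1.43 ± 0.21 below Adcy5 (SD, n = 3) with no overlap of ranges. It stood 0.28 above the typical expressed gene on the log2 scale (SE 0.09, limma, adjusted p = 0.0268), a call lost when any animal was left out (adjusted p from 0.0674 to 0.186).

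The remaining adenylyl cyclases were low. Adcy8, the other calcium- and calmodulin-stimulated form, measured 5.48, 4.02 and 2.17 FPKM, a level 17.0-fold below Adcy1 by the mean log2 ratio (4.09 ± 0.56, SD, n = 3). Adcy4 and Adcy7 share regulation by beta-gamma subunits with Adcy2. Adcy4 measured 1.25, 1.45 and 1.24 FPKM and Adcy7 0.595, 0.746 and 1.31 FPKM, each below every value of Adcy2. Adcy10, the soluble cyclase that responds to bicarbonate, measured 0.821, 1.06 and 0.597 FPKM. Adcy4, Adcy7 and Adcy10 did not pass the limma test against 1 FPKM in either direction (adjusted p = 0.124, 0.467 and 0.321, with Adcy4 passing at 0.0323 when limma's prior had no trend), while Adcy8 was above it (adjusted p = 0.00276).

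Among the Gucy genes, transcripts came almost wholly from those of the nitric oxide receptor. Gucy1b3 (now Gucy1b1 in RefSeq; chromosome 2, 180976939 to 181026024), the common beta subunit, measured 79.0, 59.5 and 38.7 FPKM and held 73.7 ± 2.94% of the summed FPKM of the 9 Gucy genes. Gucy1a3 (now Gucy1a1; chromosome 2, 181045703 to 181102918), its main alpha partner, measured 22.3, 16.9 and 14.1 FPKM. Gucy1a2, the other alpha subunit, measured 1.74, 3.39 and 1.78 FPKM, so animal 39 stood above the others. Its level passed 1 FPKM by 1.06 on the log2 scale (limma, adjusted p = 0.0126), but not without animal 39 (adjusted p = 0.0838).

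The beta subunit exceeded its partners in every animal. Gucy1b3 was 3.28, 2.93 and 2.44 times the summed FPKM of both alpha genes in animals 32, 39 and 68 (2.89 ± 0.42, SD, n = 3). Over Gucy1a3 alone the log2 ratio was 1.82, 1.81 and 1.45, and Gucy1a3 in turn exceeded Gucy1a2 7.65-fold. The ranges of these genes did not overlap. FPKM divides by an assumed gene length, so a transcript ratio between subunits depends on both gene models.

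Gucy1b3 and Gucy1a3 lie side by side on the minus strand of chromosome 2, and both had the order 32, 39, 68 from high to low. Their upstream windows are shown because the pair encodes the main dimer and both genes had the same order of animals. Each is the RefSeq sequence of 250 bases before the gene's start in the GRCr8 build, minus strand, read 5′ to 3′, at chr2:169779624-169779873 for Gucy1a3 and chr2:169696988-169697237 for Gucy1b3. Capitals mark the GC box letters GGGCGG, a known motif of Sp1-type factors, on either strand.
Gucy1a3: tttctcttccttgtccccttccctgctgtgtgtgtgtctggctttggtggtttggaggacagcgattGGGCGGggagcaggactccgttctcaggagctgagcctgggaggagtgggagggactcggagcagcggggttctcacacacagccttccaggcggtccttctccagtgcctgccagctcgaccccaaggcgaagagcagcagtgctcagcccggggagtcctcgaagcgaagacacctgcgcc
Gucy1b3: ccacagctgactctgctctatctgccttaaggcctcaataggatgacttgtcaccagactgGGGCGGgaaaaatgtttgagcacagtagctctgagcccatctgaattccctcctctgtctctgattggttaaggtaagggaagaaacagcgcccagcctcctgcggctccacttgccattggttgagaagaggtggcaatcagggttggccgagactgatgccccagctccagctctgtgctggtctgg
Each window holds 1 GC box. These letters occur in 30.5% of all 33469 promoter windows of this length, and in 17 of the 40 windows that matched 29 members. The median GC content was 58% for the member windows and 51.2% for all windows, and its part in these matches was not tested. The cAMP response element TGACGTCA was in none of the 40 windows and in 1.59% of all windows. The shorter letters TGACG, which the full element contains, were in 7 of the 40 member windows and in 18.2% of all. A match describes the letters only.

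The other Gucy genes were near 0. Gucy1b2, a further beta-type subunit, measured 0.0841, 0.285 and 0.184 FPKM. Of the receptor forms named Gucy2, Gucy2d reached at most 0.219 FPKM, Gucy2e 0.0534, Gucy2g 0.0351, the intestinal peptide receptor Gucy2c 0.0172 and the retinal Gucy2f 0.0173. The 5 Gucy2 genes summed to 0.207 ± 0.0984 FPKM, against 79.3 ± 24.2 for the 4 soluble subunit genes. Gucy1b2, Gucy2d, Gucy2c and Gucy2e were below 1 FPKM by the limma test, while Gucy2f and Gucy2g were above 0 in only 1 library each and were not tested.

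**Figure D2:**
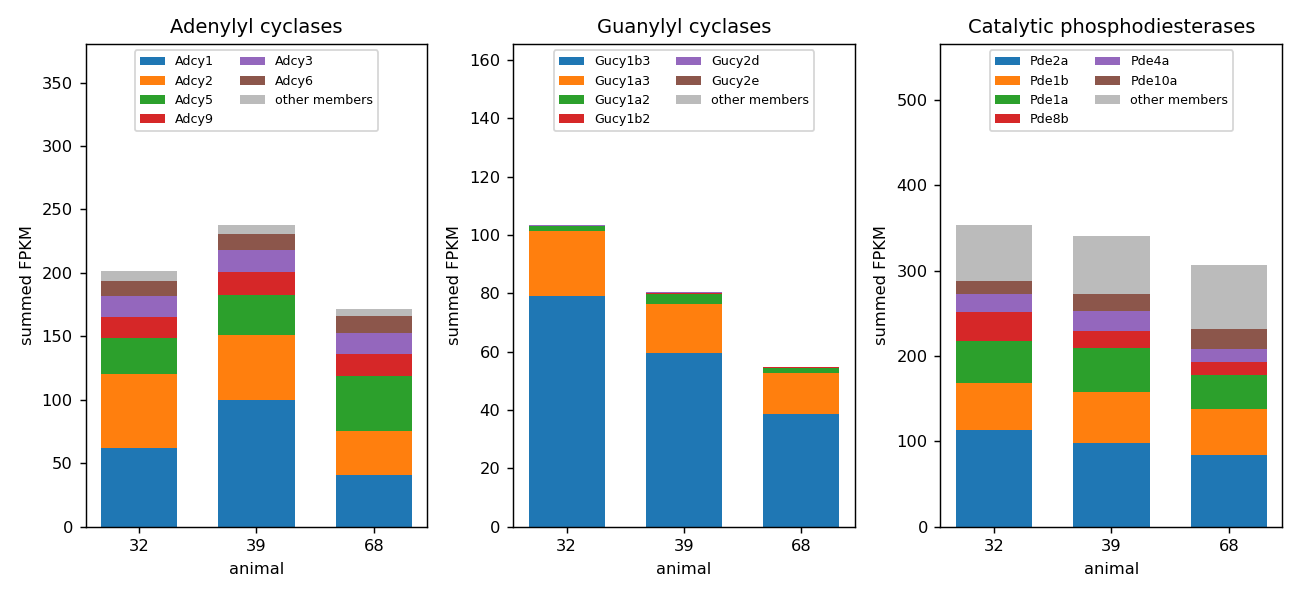
Summed FPKM of each enzyme family in each animal, stacked by its 6 leading members with the rest in grey; the legend order runs from the bottom of the bar up. The sum of the Gucy genes is 103, 80.4 and 54.8 FPKM in animals 32, 39 and 68, and is almost all Gucy1b3 and Gucy1a3.

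Phosphodiesterases that hydrolyse both cyclic nucleotides dominated their family. The 7 dual-substrate genes held 68.3 ± 1.0% of the summed FPKM of the 20 catalytic genes, the 8 cAMP-specific genes 27.4 ± 1.54% and the 5 cGMP-specific genes 4.29 ± 0.891% (SD, n = 3). Pde2a, Pde1b and Pde1a alone held 60.2 ± 1.96%. Pde2a (chromosome 1, 166534643 to 166626158), the enzyme that cGMP stimulates, measured 113, 97.9 and 83.9 FPKM in animals 32, 39 and 68 and was higher than 95.4% of all genes that averaged 1 FPKM or more.

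The calcium- and calmodulin-activated Pde1 family had a pair of abundant members and a scarce one. Pde1b (chromosome 7, 145117951 to 145145376) measured 55.0, 59.5 and 54.4 FPKM and Pde1a (chromosome 3, 66803247 to 66885094) 48.8, 51.4 and 39.7 FPKM. Pde1b was the higher in each animal, by a log2 ratio of 0.28 ± 0.15 in size, without overlap of the ranges. Pde1c measured 0.624, 1.23 and 1.68 FPKM and did not pass the test against 1 FPKM (limma, adjusted p = 0.727). Its log2 estimate changed sign without animal 68. Pde1b exceeded Pde1c 47.1-fold and Pde1a exceeded it 38.8-fold on the FPKM + 0.1 scale.

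Pde10a, a dual-substrate enzyme known for its high level in striatal projection neurons, measured 15.2, 19.4 and 23.6 FPKM. Pde2a exceeded it 5.09-fold and Pde1b 2.93-fold, and both ratios were smallest in animal 68. The cGMP-inhibited enzymes Pde3b and Pde3a were lower. Pde3b measured 3.41, 4.82 and 4.76 FPKM, and Pde3a, a form of heart and vessel muscle, 1.09, 1.25 and 2.26 FPKM. Pde3b was 2.81-fold above Pde3a, in the same direction in 3 of 3 animals.

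By the mean of 3 animals the cAMP-specific enzymes were led by Pde8b, Pde4a and Pde4b, but Pde4a led in animal 39 and Pde8a in animal 68. Pde4 enzymes are the targets of rolipram and shape cAMP signals at neuronal receptors. Pde4a measured 20.5, 23.7 and 14.9 FPKM and Pde4b 16.6, 14.3 and 16.0 FPKM, and their ratio changed sign in animal 68. Pde4d measured 7.90, 8.59 and 7.76 FPKM, 1.92-fold below Pde4b, and Pde4c 1.68, 1.5 and 1.1 FPKM, 5.43-fold below Pde4d. Pde4c did not pass the limma test against 1 FPKM (adjusted p = 0.0966, and 0.0346 without animal 68). Part of Pde4b overlaps an unnamed gene on the same strand by 250 bases, which averaged 0.243 FPKM.

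Pde7 and Pde8 enzymes have a high affinity for cAMP. Pde7b measured 8.94, 7.53 and 6.10 FPKM and Pde7a 4.88, 5.22 and 3.20 FPKM, with Pde7b 1.70-fold higher and no overlap. The Pde8 genes ran in opposite orders. Pde8b measured 34.97, 20.6 and 14.8 FPKM in animals 32, 39 and 68, and Pde8a 7.48, 10.4 and 16.5 FPKM. Their log2 ratio was therefore 2.21, 0.98 and -0.16, so Pde8b was the higher in 2 of 3 animals and the 2-fold mean ratio (1.01 ± 1.19 on the log2 scale) lay within its SD of 0.

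The cGMP-specific enzymes were scarce apart from Pde9a. Pde9a, a high-affinity cGMP hydrolase, measured 9.56, 9.18 and 11.1 FPKM, close to the typical expressed gene (log2 difference -0.05, SE 0.10, limma, adjusted p = 0.617). Pde5a, the sildenafil target known from vessel muscle, measured 3.18, 4.07 and 5.17 FPKM, 2.40-fold below Pde9a without overlap. The photoreceptor enzyme genes were at the floor, with Pde6b at 0.196, 0.0233 and 0.0817 FPKM, Pde6c at 0.0250 FPKM in animal 39 and 0 elsewhere, and Pde6a listed at 0 in every library. Among 8 photoreceptor markers, 7 were tested and all 7 were below 1 FPKM (limma, adjusted p under 0.05 for each, as were 17.4% of all tested genes). Crx was listed at 0.

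The non-catalytic name matches split into abundant and scarce genes. Pde4dip, or myomegalin, an anchoring protein of the Golgi and centrosome, measured 31.3, 30.4 and 33.8 FPKM. Pde6d, a chaperone of lipid-modified proteins that is widely expressed, measured 25.2, 27.9 and 28.2 FPKM. Both varied by an SD under 0.10 on the log2 scale. Pde6g and Pde6h, the inhibitory gamma subunits of the photoreceptor enzyme, were highest in animal 68. Pde6g measured 0, 0.409 and 1.61 FPKM and Pde6h 0.261, 0.419 and 0.978 FPKM, and neither passed the test against 1 FPKM (limma, adjusted p = 0.185 and 0.0697). Without animal 68, Pde6h was below 1 FPKM (adjusted p = 0.00373).

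**Figure D3:**
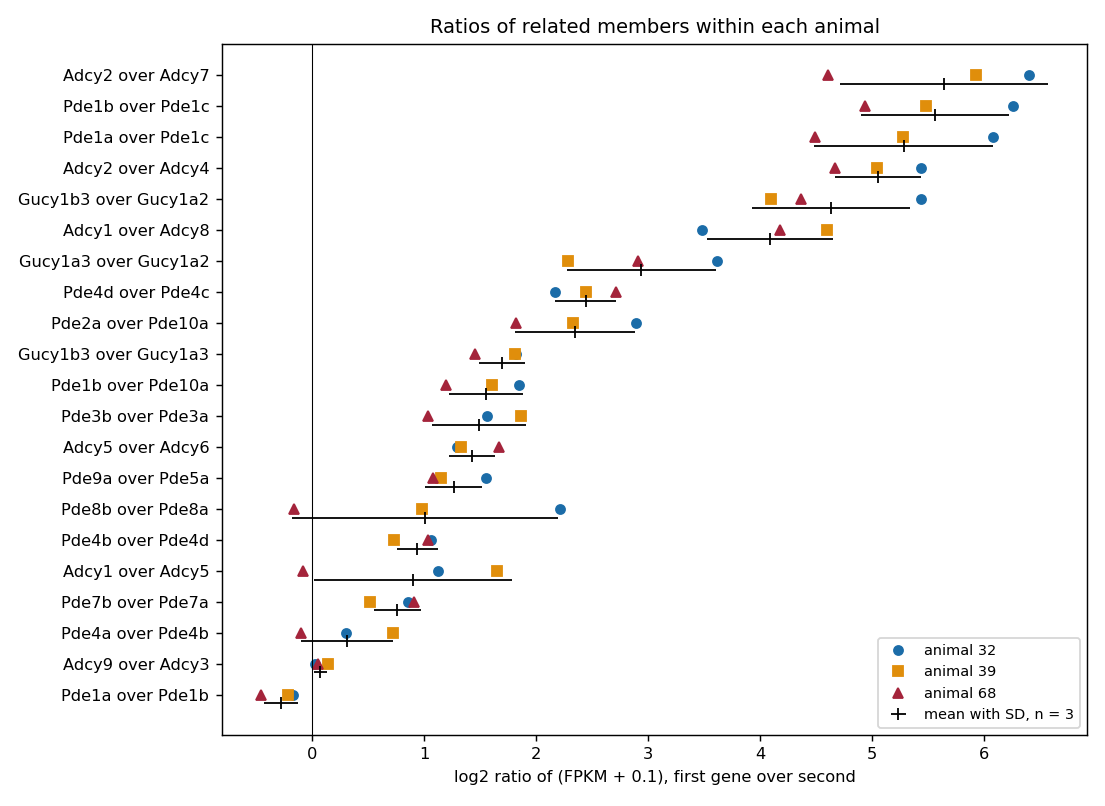
Log2 ratio of FPKM + 0.1 between related members within each animal (first gene over second), with the mean and SD of 3 animals beneath the points, for 21 pairs. Points right of 0 mean that the first gene is higher, and Adcy1 over Adcy5, Pde4a over Pde4b and Pde8b over Pde8a have animal 68 on the other side of 0.

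Of these 21 pairs, 18 had the same sign in 3 of 3 animals and 17 had ranges that did not overlap. The share among other gene pairs was not computed, so these counts do not set the members apart from other genes. Pde6b over Pde6a was left out because Pde6a was at 0 in every library. An exact sign-flip test over 3 animals cannot go below p = 0.25, so no p is given for these ratios.

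Differences between animals were described by size, since each animal has 1 library. Between animals 68 and 32, 2 of the 30 members with a mean of at least 1 FPKM were at least 2-fold higher in animal 68 (9.77% of all such genes), and 3 were at least 2-fold lower (3.05% of all such genes). The higher ones were Pde8a (log2 difference 1.13) and Pde1c (1.3), and Pde3a reached 0.99. The lower ones were Adcy8 (-1.3), Pde8b (-1.24) and Gucy1b3 (-1.03). Between animals 39 and 32 no member differed 2-fold, where 2.59% of genes were higher and 0.553% lower. Between animals 68 and 39 only Adcy1 passed, at -1.28, where 1.97% of genes were lower and 4.18% higher. The median difference between animals 68 and 32 was -0.01 over these 30 members and 0.07 over all 13378 genes.

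**Figure D4:**
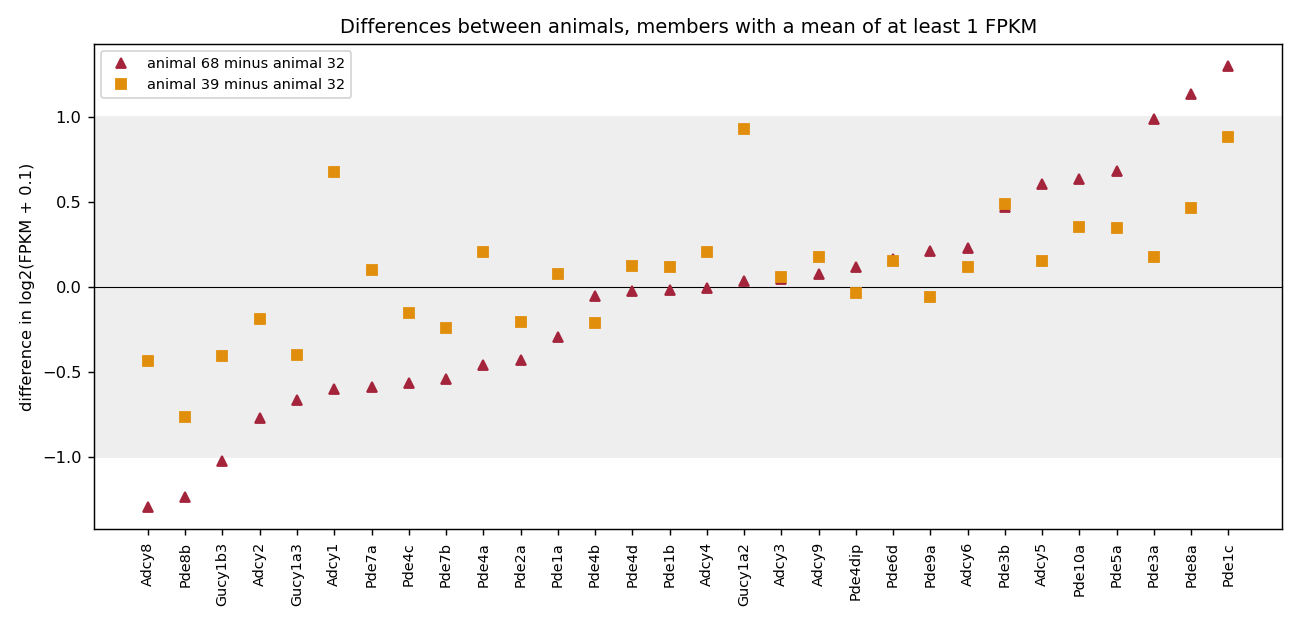
Difference in log2(FPKM + 0.1) of the 30 members with a mean of at least 1 FPKM, for animal 68 minus animal 32 (triangles) and animal 39 minus animal 32 (squares), ordered by the former. The grey band spans changes under 2-fold, and 5 triangles and no squares lie outside it.

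No member passed a test of excess spread between animals against genes of its level (0 of 30, limma variance test, adjusted p under 0.05, called for 0% of 13378 genes). It called no gene at all, not even Ttr at 8.36, 615 and 7264 FPKM in animals 32, 39 and 68. With 3 libraries it therefore cannot show whether members vary in excess. At an unadjusted p under 0.05 the same test gave 3 of 30 members, Adcy1, Pde8b and Gucy1b3, where 5.14% of all genes passed. Their log2 SDs were 0.64, 0.62 and 0.52. The median log2 SD was 0.30 over the 30 members and 0.20 over all genes averaging 1 FPKM or more, and 19 of the 30 exceeded the latter.

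Of the 30 members, 15 were lowest in animal 68, against 35.5% of all genes averaging 1 FPKM or more, and 10 were highest there, against 46.7%. Adcy5 and Pde10a were 0.60 and 0.63 higher in animal 68 than in animal 32 on the log2 scale, and stayed higher with median-of-ratios scaling (0.53 and 0.56) and quantile normalization (0.59 and 0.57). In the same libraries the striatal markers Rgs9, Drd1 and Adora2a measured 2.39, 3.15 and 18.2 FPKM, 2.67, 3.27 and 9.90 FPKM, and 1.05, 1.35 and 11.2 FPKM. Gnal, the G protein alpha subunit that couples dopamine and adenosine receptors to cyclase in striatum, measured 6.16, 6.40 and 18.1 FPKM. Pde1b and Pde7b, which striatal neurons also express, had log2 differences of -0.02 and -0.54. The part of striatal tissue in these values was not tested. In bulk tissue, more cells of a type and more RNA per cell cannot be told apart.

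The windows before Adcy5 (chr11:79123344-79123593) and Pde10a (chr1:54501207-54501456 and chr1:54765669-54765918, a pair of starts) are shown for these genes with the same order of animals, from RefSeq in GRCr8, minus strand, 5′ to 3′. Capitals mark GC boxes and the letters TGACG, each on either strand.
Adcy5: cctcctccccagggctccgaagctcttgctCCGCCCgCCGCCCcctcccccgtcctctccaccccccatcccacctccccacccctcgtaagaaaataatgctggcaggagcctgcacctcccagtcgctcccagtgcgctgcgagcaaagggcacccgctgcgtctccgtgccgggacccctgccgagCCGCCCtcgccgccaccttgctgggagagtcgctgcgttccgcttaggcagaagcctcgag
Pde10a, first window: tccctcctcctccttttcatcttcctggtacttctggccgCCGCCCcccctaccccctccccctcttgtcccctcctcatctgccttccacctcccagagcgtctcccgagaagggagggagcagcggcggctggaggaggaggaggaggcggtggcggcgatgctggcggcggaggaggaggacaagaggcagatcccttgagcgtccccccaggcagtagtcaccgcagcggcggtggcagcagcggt
Pde10a, other window: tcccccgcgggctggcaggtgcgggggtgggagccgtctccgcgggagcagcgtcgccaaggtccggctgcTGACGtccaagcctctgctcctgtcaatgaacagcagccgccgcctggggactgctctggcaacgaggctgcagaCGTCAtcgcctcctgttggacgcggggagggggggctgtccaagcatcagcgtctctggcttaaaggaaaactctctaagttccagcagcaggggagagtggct
The Adcy5 window holds 3 GC boxes and no TGACG, the first Pde10a window 1 GC box, and the other 2 copies of TGACG without a GC box.

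Other members had an order of animals shared by several marker lists, namely the glial and choroid plexus lists, the ependymal list (10.6, 19.3 and 55.7 FPKM) and the meninges and fibroblast list (29.9, 39.1 and 94.2 FPKM). Pde8a was 7.48, 10.4 and 16.5 FPKM where the oligodendrocyte sum was 3161, 4857 and 8504 FPKM and the microglia sum 38.1, 61.1 and 82.7 FPKM. Pde5a and Pde3a had the same order of animals, while the sums over 6 vessel mural cell markers, 90.1, 116 and 98.7 FPKM, did not. Members lowest in animal 68 included Gucy1b3, Gucy1a3, Adcy2, Adcy8 and Pde8b, where the 7 interneuron markers summed to 647, 563 and 358 FPKM and the 7 excitatory neuron markers to 1396, 1435 and 1237 FPKM. The genes of those lists did not share 1 order, since Neurod6 measured 47.3, 78.4 and 107 FPKM, Tbr1 43.7, 36.0 and 15.9, Sst 167, 193 and 103, and Gad2 61.1, 55.0 and 58.4. Their part in these values was not tested.

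**Figure D5:**
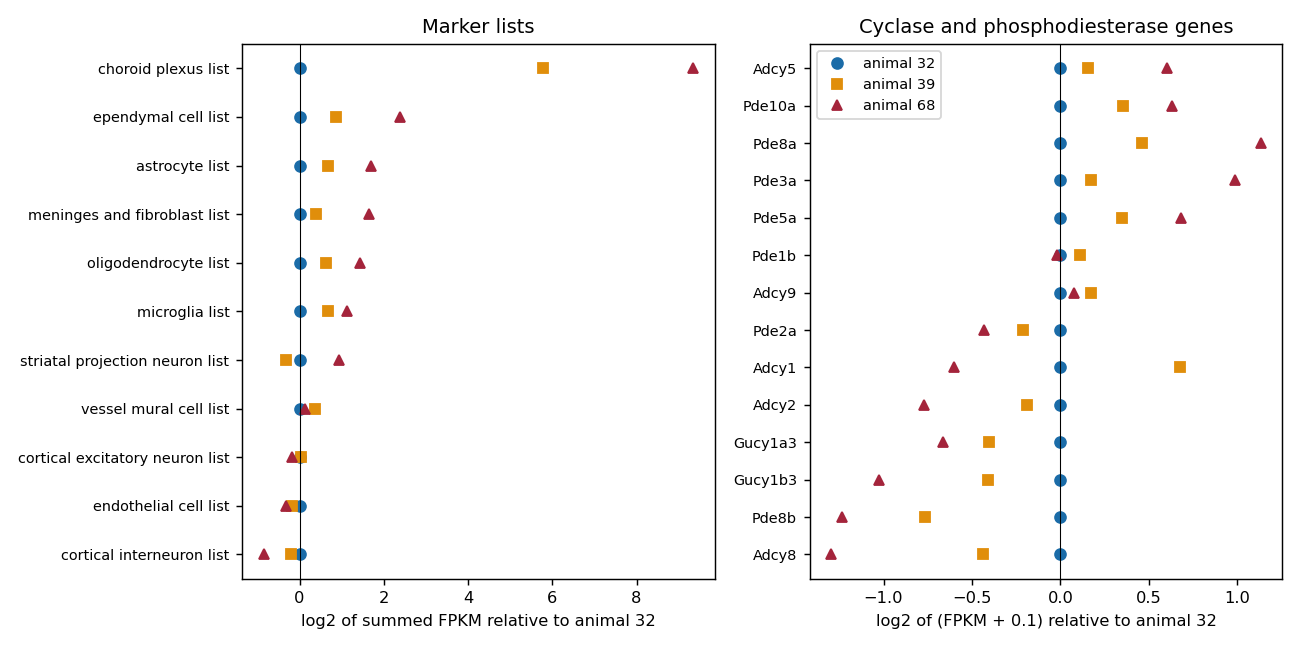
Left, summed FPKM of 11 marker lists in each animal, as log2 relative to animal 32. Right, 14 cyclase and phosphodiesterase genes on the same kind of scale with 0.1 added to FPKM. Animal 68 is highest for the choroid plexus, glial and striatal lists and for Adcy5, Pde10a and Pde8a, and lowest for the interneuron list and for Gucy1b3, Pde8b and Adcy8.

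Transcripts of genes whose products act before and after these enzymes were also measured. All 7 G protein alpha genes that act on adenylyl cyclase were above 1 FPKM (limma, adjusted p under 0.05 for each, as were 69.6% of all tested genes), with the stimulatory Gnas at 76.7 ± 3.49 FPKM, far above Gnal at 10.2 ± 6.81. The inhibitory Gnai2 and Gnai1 measured 79.9 ± 12.9 and 73.6 ± 4.49 FPKM, and Gnao1 185 ± 11.0 FPKM. Gnas is listed with a further gene ID under the same symbol, of which the higher is given.

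Of 22 effector genes found, 18 were tested, 13 were above 1 FPKM (69.6% of all tested genes) and 3 below (17.4% of all tested genes), shares close to the background. Of the regulatory subunits of protein kinase A, Prkar1a measured 218 ± 13.2 and Prkar1b 200 ± 34.6 FPKM, against 21.8 ± 9.06 for Prkar2b and 13.0 ± 1.33 for Prkar2a. The catalytic subunits Prkacb and Prkaca measured 88.6 ± 27.2 and 63.8 ± 5.41 FPKM. The cAMP-activated exchange factor Rapgef4 measured 146 ± 8.67 FPKM, against 13.3 ± 2.03 for its relative Rapgef3. The cyclic nucleotide-modulated channel Hcn2 measured 51.5 ± 9.46 FPKM, while every Cnga and Cngb channel gene of the list averaged under 0.1 FPKM. Prkg2, a cGMP-dependent kinase, measured 3.27, 2.21 and 1.20 FPKM, and Prkar2b 30.2, 23.2 and 12.2 FPKM, both lowest in animal 68 like Gucy1b3. Of the 22 effector genes, of which 14 averaged 1 FPKM or more, 8 were highest in animal 68. Of all genes averaging 1 FPKM or more, 46.7% were highest and 35.5% lowest there. Prkg1, also on the list, was not found by name.

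Sources of nitric oxide and membrane receptors for natriuretic peptides were modest. Nos1, the neuronal synthase, measured 4.66 ± 0.512 FPKM and the endothelial Nos3 2.96 ± 0.625 FPKM. Nos2, also on the list, was not found by name. Npr1 and Npr2, receptor guanylyl cyclases that the Gucy name does not cover, measured 6.36 ± 2.21 and 9.58 ± 1.48 FPKM, each above the 0.207 ± 0.0984 FPKM sum of all 5 Gucy2 genes in every animal. Of 14 A-kinase anchoring genes, 11 were above 1 FPKM and 1 below among 13 tested (69.6% and 17.4% of all tested genes), led by Akap6 (26.3 ± 2.20 FPKM) and the synaptic Akap5 (25.1 ± 2.27 FPKM).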

How the data were processed

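Per the labels' protocols, RNA was checked for integrity, DNase-treated, enriched for mRNA and made into libraries. To obtain the deposited FPKM, the authors counted and normalized fragments per gene and then ran a Perl script, per the labels. The submitters' processing notes list HISAT2 2.0.4, StringTie 1.3.0 and the build Rnor_6.0, with no roles. Whether counting used strand is not given in the sources used here, so overlapping genes cannot be separated. FPKM is no count, so values were analysed as log2(FPKM + 0.1) with limma 3.58.1 in R 4.3.3. One-sample tests were made against 1 FPKM and against the library's median over genes averaging 1 FPKM or more (17533 genes above 0 in at least 2 libraries). A variance test covered 13378 genes. All had Benjamini-Hochberg adjustment over all genes tested. The test against 1 FPKM and the variance test were also run on simulated data, both over the 17533 genes. The test against the library's median was not. P-values concern the spread of these 3 animals only. Depth was inferred from loci of up to 400 bases, where 85.0 to 86.6% of values were within 0.02 of whole fragments; it covers counting error only, and fragments from PCR are not independent molecules. Member shares, sums and ratios were computed in Python 3.11.15. Every member is named; of each pathway list up to 6 genes and of each marker list up to 4 with the highest mean may be, plus markers listed at 0. Gnal, Drd1, Adora2a, Rapgef3, Prkg2, Prkar2a, Prkar2b and the plotted members were picked after their values were seen. Members and lists were chosen with earlier results of these data known. Pde11a was not found by name, so the counts, sums and shares leave it out. Symbols were matched to RefSeq (GRCr8) for 29 members' promoter windows, and no coordinate was carried between builds. Alternatives changed the pseudocount, filter, scaling and limma prior and left out each animal.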

Additional observations from a re-analysis of the deposited data

How the results depend on the processing

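The counts of members above 1 FPKM and above or below the typical expressed gene, the variance counts and the family shares stayed within 1.5 times or within their SD, except as follows. With genes above 0 in any library, 8 members were below 1 FPKM, and 5 were at least 2-fold higher in animal 68 than in 32, 2 higher and 1 lower in 39 than in 32, and 2 higher in 68 than in 39, since low genes then count. With a filter of a mean of at least 1 FPKM, 11 were below the typical gene and 0 below 1 FPKM, since genes averaging less are left out. The same filter left 0 of all 13378 genes called below 1 FPKM, so it is no check on that count. The count higher in animal 68 than in 32 was 1 with a pseudocount of 1, with a mean of at least 5 FPKM and with quantile normalization, and the count lower in 68 than in 39 was 3 with quantile normalization; the cause was not tested. Leaving out 1 animal gave 3 to 5 members below 1 FPKM (3 without animal 39) and 1 to 3 at an unadjusted p under 0.05 in the variance test (1 without animal 32). Estimates that changed sign, none of them called, were Pde1c against 1 FPKM (-0.16 without animal 68, range to 0.48), and Pde8a (-0.24 without animal 68, range to 0.33) and Pde9a (0.0070 without animal 39, range from -0.15) against the typical gene. Pde7b and Pde4d, called below the typical gene, lost the call with 1 animal left out (adjusted p up to 0.143 and 0.141, limma). Without a trend in limma's prior, Pde7b and Adcy6 lost their calls against the typical gene (0.0614 and 0.0572) and Adcy4 passed above 1 FPKM (0.0323). Pde6h passed below 1 FPKM with quantile normalization (0.0390). Of the differences between animals of single members, 498 were within their spread under an alternative and 15 moved by more, and of the ratios 103 and 7. No paired analysis was possible because all samples form 1 group. Members under 0.2 FPKM rest on few fragments, and differences among them were not detectable at this depth.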
